A study of Mus musculus with 15 samples.

Results

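The genes described here make the enzymes stored in the granules of neutrophils (*Mpo*, *Elane*, *Prtn3*, *Ctsg*), membrane proteins of the MS4A family (*Ms4a3*, *Ms4a6b*), a pair of receptors of the Mas-related family (*Mrgpra2a*, *Mrgpra2b*) and transcription factors of the granulocyte lineage (*Cebpe*, *Cebpa*). These 10 of the 17454 genes in the table were chosen by name, with earlier results of these data known, and the contrast in view was Tie2-Ezh2-KO against wild type. Their values in that contrast are therefore a description with no p, the number of them past the threshold there is given only beside that of all genes, and the tests on members are those of Vav-Ezh2-KO against WT and of correlation across these libraries. These tests use the WT libraries of that contrast, so they are not free of the choice.

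RNA was measured in erythro-myeloid progenitors (EMPs) sorted from the yolk sac of C57BL/6 mouse embryos at E10.5, in 15 libraries. All embryos carried *Ezh2*fl/fl, a floxed gene for the catalytic subunit of Polycomb repressive complex 2. The 3 Tie2-Ezh2-WT and 2 Vav-Ezh2-WT libraries came from embryos without the Cre transgene, which the labels write as Cre+/+, and are pooled as WT. The 5 Tie2-Ezh2-KO embryos carried Tie2-CreTg/+, which acts from the endothelial stage on, and the 5 Vav-Ezh2-KO embryos carried Vav-CreTg/+, which acts from the onset of the hematopoietic stage. The cells were gated by the study as negative for lineage markers and positive for KIT, CD41 and CD16/32. Per the labels, each library was made from 500 cells with a SMARTer kit and 16 cycles of PCR and read as 75 bp single-end reads, so reads are not independent molecules. The study's text gives fewer cells per library than the labels, and neither number could be checked here. The number of reads on genes per library ranged from 10407398 to 41025074, with a median of 16091836. Levels are in RPKM, which scales reads by gene length and by the number mapped in a library, and log2 changes are KO minus WT on log2(RPKM + 0.2). The labels assign no library to a batch or an experiment.

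Neutrophils form their granules in order during maturation. Promyelocytes fill the primary (azurophil) granules with myeloperoxidase and with the serine proteases neutrophil elastase, proteinase 3 and cathepsin G, and later stages make the secondary and tertiary granules. C/EBP alpha acts where progenitors enter the granulocyte-monocyte path, and C/EBP epsilon acts in the later granulocyte stages.

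*Ezh2* itself was 36.9, 39.5 and 30.1 RPKM in Tie2-Ezh2-WT replicates 4, 10 and 12 and 42.0 and 41.5 RPKM in Vav-Ezh2-WT replicates 4 and 6. In Tie2-Ezh2-KO replicates 7, 9, 11, 13 and 17 it was 27.8, 26.2, 24.8, 29.5 and 26.5 RPKM. The Vav-Ezh2-KO replicates 1, 9, 10, 26 and 28 had 33.7, 42.4, 37.8, 38.1 and 34.0 RPKM. Every Tie2-Ezh2-KO library was lower than the lowest WT library, while Vav-Ezh2-KO overlapped WT. The means were 38.0 ± 4.84 RPKM in WT, 27.0 ± 1.78 RPKM in Tie2-Ezh2-KO (SD, n = 5; exact permutation test, two-sided, p = 0.00794, which is the lowest possible for 5 against 5) and 37.2 ± 3.56 RPKM in Vav-Ezh2-KO (n = 5; exact p = 0.849). In Tie2-Ezh2-KO the log2 change was -0.48 (standard error 0.12, limma adjusted p = 0.0418), and the call was lost in 11 of 21 alternatives (adjusted p from 0.0132 to 0.344 over all 21), while the change stayed between -0.56 and -0.39. Leaving out Tie2-Ezh2-WT replicate 4 or 10, Vav-Ezh2-WT replicate 4 or 6, or Tie2-Ezh2-KO replicate 7, 11 or 17 gave adjusted p of 0.0760, 0.114, 0.126, 0.111, 0.0802, 0.0976 and 0.0939. The value covers the whole gene and the floxed exons were not separated, so it checks the knockout labels only in part.

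The list fixed for the sorting gate held 8 genes. *Kit*, *Itga2b* for CD41, and *Fcgr3* and *Fcgr2b* for CD16/32 encode markers of the gate, while *Ptprc*, *Runx1*, *Gfi1b* and *Myb* do not. All 8 were above 0 in every group, and their summed level was 473 ± 50.9 RPKM in WT, 479 ± 40.4 RPKM in Tie2-Ezh2-KO and 439 ± 62.9 RPKM in Vav-Ezh2-KO (SD, n = 5). Much of this sum was *Gfi1b*, which averaged 208 RPKM over the WT libraries against 267 RPKM over the Tie2-Ezh2-KO libraries and was the 1 gene of the 8 with a log2 change above 0 there. Among the other 7, *Fcgr3* averaged 124 against 89.4 RPKM, *Fcgr2b* 9.07 against 5.60 RPKM and *Ptprc* 10.52 against 6.53 RPKM, with limma adjusted p of 0.131, 0.131 and 0.322. Transcripts of visceral endoderm, the outer layer of the yolk sac, set 2 libraries apart. The summed level of its 7 markers was 94.0 RPKM in Tie2-Ezh2-WT replicate 4 and 136 RPKM in Tie2-Ezh2-KO replicate 7, with *Afp* the most abundant over the WT libraries (10.6 RPKM), and it lay between 0.935 and 9.61 RPKM in the other libraries. Without both, the log2 change of *Ezh2* in Tie2-Ezh2-KO was -0.50, and it did not pass (limma adjusted p = 0.137).

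Of the granule enzymes, *Mpo* (chr11:87793784-87804412; coordinates are those of GRCm38.p6), which makes hypochlorous acid, was by far the most abundant. In WT EMPs it ranked 21 of 17454 genes by mean RPKM and took from 0.284% to 0.452% of the reads of a library. It was 1115, 1506 and 1204 RPKM in Tie2-Ezh2-WT and 1776 and 1587 RPKM in Vav-Ezh2-WT libraries, against 873, 623, 1158, 643 and 1045 RPKM in Tie2-Ezh2-KO libraries. Of these 5, 4 were lower than any WT library, and replicate 11 was above the lowest of them, so the groups overlapped. The mean was 1438 ± 274 RPKM in WT against 868 ± 238 RPKM in Tie2-Ezh2-KO (SD, n = 5), a log2 change of -0.75 (standard error 0.18), and the share of reads in Tie2-Ezh2-KO ran from 0.159% to 0.295%. In bulk RNA, fewer cells that make a transcript and less of it per cell cannot be told apart, here and below.

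*Elane* (chr10:79886312-79888216), which encodes neutrophil elastase, was 9.40, 12.9 and 18.3 RPKM in Tie2-Ezh2-WT and 22.8 and 12.9 RPKM in Vav-Ezh2-WT libraries. In Tie2-Ezh2-KO replicates 7, 9, 11, 13 and 17 it was 0.887, 2.70, 10.49, 1.499 and 5.81 RPKM. Replicate 11 was the highest and lay above the lowest WT library, while the other 4 were lower than any WT library. The mean was 15.3 ± 5.28 RPKM in WT against 4.28 ± 3.96 RPKM in Tie2-Ezh2-KO (SD, n = 5), with a log2 change of -2.20 (standard error 0.49). The reads behind it numbered 90 to 692 in a WT library and 13 to 143 in a Tie2-Ezh2-KO library.

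*Prtn3* (chr10:79879667-79883174), which encodes proteinase 3, lies 3137 bases from *Elane*. It was 192, 233 and 178 RPKM in Tie2-Ezh2-WT, 331 and 365 RPKM in Vav-Ezh2-WT, and 249, 180.4, 251.9, 174 and 282 RPKM in Tie2-Ezh2-KO libraries. The Tie2-Ezh2-KO libraries overlapped the WT libraries, and the WT libraries of the Vav line were higher than those of the Tie2 line. The log2 change was -0.16 (standard error 0.20) against all WT libraries and 0.16 against Tie2-Ezh2-WT libraries only. Within a library, *Elane* amounted to 6.23 ± 2.58% of the RPKM of *Prtn3* in WT, 1.79 ± 1.48% in Tie2-Ezh2-KO and 6.15 ± 4.07% in Vav-Ezh2-KO (SD, n = 5). The ratio of *Mpo* to *Prtn3* in RPKM was 5.75 ± 0.955, 3.79 ± 0.464 and 5.68 ± 2.06 (SD, n = 5) in the same order, with the highest Tie2-Ezh2-KO library at 4.60 and the lowest WT library at 4.35. In Vav-Ezh2-KO replicate 9 had a ratio of 9.29, and the other libraries of that group ran from 4.34 to 5.39.

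*Ctsg* (chr14:56099885-56102574), for cathepsin G, was close to 0 in these cells. It had 0 reads in 3 of 5 libraries of WT and of either knockout, and 9, 7 and 11 reads summed over the WT, the Tie2-Ezh2-KO and the Vav-Ezh2-KO libraries. Its highest value was 0.379 RPKM, so a difference between groups was not detectable at this depth.

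**Figure D1:**
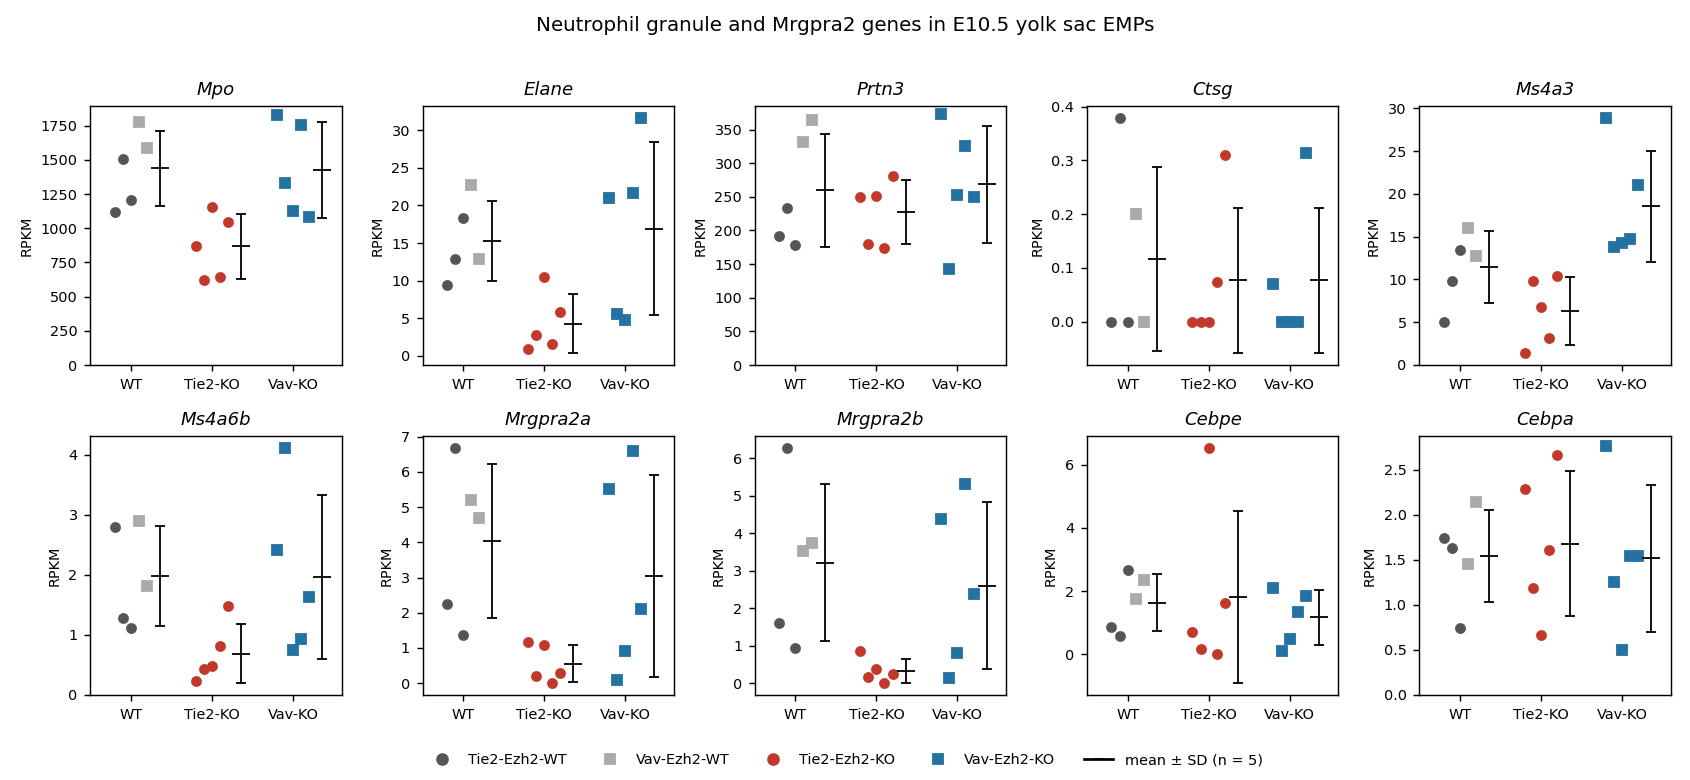
RPKM of each of the 10 genes in every library (1 point per library), in 5 WT (dark circles Tie2-Ezh2-WT, light squares Vav-Ezh2-WT), and in 5 libraries of either knockout, with mean and SD as bars and a scale of its own for each gene. In *Mrgpra2a* and *Mrgpra2b* all Tie2-Ezh2-KO points lie below all WT points, and in the other 8 genes the groups overlap.

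Of the membrane proteins, *Ms4a3* (chr19:11629499-11640851), a marker of granulocyte-monocyte progenitors, was 5.03, 9.81 and 13.5 RPKM in Tie2-Ezh2-WT and 16.1 and 12.7 RPKM in Vav-Ezh2-WT libraries. In Tie2-Ezh2-KO libraries it was 1.36, 9.76, 6.73, 3.13 and 10.4 RPKM, and in Vav-Ezh2-KO libraries 28.9, 13.8, 14.3, 14.8 and 21.0 RPKM. All 5 Tie2-Ezh2-KO libraries lay below the WT mean of 11.4 ± 4.21 RPKM (SD, n = 5) and all 5 Vav-Ezh2-KO libraries above it, and both overlapped the WT libraries. This did not hold against the WT mean of each line, 9.44 RPKM in Tie2-Ezh2-WT and 14.4 RPKM in Vav-Ezh2-WT libraries, where Tie2-Ezh2-KO replicates 9 and 17 lay above and Vav-Ezh2-KO replicates 9 and 10 below. The log2 change of *Ms4a3* in Tie2-Ezh2-KO was -1.06 against all WT libraries, and -0.63 without Tie2-Ezh2-KO replicate 7. *Ms4a6b* (chr19:11518559-11530403), whose relatives are expressed in myeloid and lymphoid cells, was 1.98 ± 0.836 RPKM in WT, 0.684 ± 0.490 RPKM in Tie2-Ezh2-KO and 1.97 ± 1.37 RPKM in Vav-Ezh2-KO (SD, n = 5). Of the Tie2-Ezh2-KO libraries, 4 were lower than any WT library and replicate 17, at 1.47 RPKM, lay among them, with 6 to 40 reads per library.

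The receptors *Mrgpra2a* (chr7:47426325-47452164) and *Mrgpra2b* (chr7:47463807-47489582) are neighbours, 11642 bases apart. Receptors of this family are best known from sensory neurons and mast cells. *Mrgpra2a* was 2.25, 6.69 and 1.38 RPKM in Tie2-Ezh2-WT and 5.20 and 4.69 RPKM in Vav-Ezh2-WT libraries, against 1.16, 0.211, 1.09, 0 and 0.301 RPKM in Tie2-Ezh2-KO libraries. *Mrgpra2b* was 1.60, 6.27 and 0.929 RPKM in Tie2-Ezh2-WT and 3.52 and 3.74 RPKM in Vav-Ezh2-WT libraries, against 0.847, 0.156, 0.375, 0 and 0.247 RPKM in Tie2-Ezh2-KO libraries. For both genes every Tie2-Ezh2-KO library lay below every WT library, replicate 13 had no read, and the margin between the lowest WT and the highest Tie2-Ezh2-KO library was narrow. The means were 4.04 ± 2.18 RPKM in WT against 0.553 ± 0.536 RPKM in Tie2-Ezh2-KO for *Mrgpra2a*, and 3.21 ± 2.09 RPKM and 0.325 ± 0.322 RPKM for *Mrgpra2b* (SD, n = 5).

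The log2 change in Tie2-Ezh2-KO was -2.65 (standard error 0.54) for *Mrgpra2a* and -2.66 (standard error 0.50) for *Mrgpra2b*, and it varied with the handling of low values, from -1.64 and -1.55 with a pseudocount of 1 to -3.69 and -3.76 with voom on whole reads. In Tie2-Ezh2-KO these genes had 53 and 32 reads over all 5 libraries, against 442 and 354 reads in WT. The authors kept 1 alignment per read, and of the 75-base windows of the transcripts 80.4% for *Mrgpra2a* and 74.8% for *Mrgpra2b* also occur in another gene, 937 of them in the other of the pair, so reads could have been divided between them. Their summed level gave a log2 change of -3.00 (standard error 0.60). The other receptors of the family were near 0: the summed level of 8 genes was 0.364 ± 0.150 RPKM in WT against 0.407 ± 0.113 RPKM in Tie2-Ezh2-KO (SD, n = 5), with *Mrgpre* the most abundant in WT (0.229 RPKM).

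Both transcription factors were low. *Cebpe* (chr14:54710363-54712174) was 0.854, 0.562 and 2.66 RPKM in Tie2-Ezh2-WT, 1.74 and 2.35 RPKM in Vav-Ezh2-WT, and 0.710, 0.159, 6.54, 0 and 1.61 RPKM in Tie2-Ezh2-KO libraries. Tie2-Ezh2-KO replicate 11 was the highest of all 15 libraries and replicate 13 had no read, so the knockout libraries spanned the whole WT range. The log2 change was -0.77 (standard error 0.75), while the mean was 1.63 ± 0.912 RPKM in WT against 1.80 ± 2.72 RPKM in Tie2-Ezh2-KO (SD, n = 5), so the mean of the log values and the mean of the levels differed in direction. The log2 change was -0.20 without replicate 13, -0.41 without replicate 9, -1.47 without replicate 11, -0.26 with a pseudocount of 1 and -2.11 with voom. *Cebpa* (chr7:35119293-35121928) was 1.54 ± 0.513 RPKM in WT, 1.68 ± 0.806 RPKM in Tie2-Ezh2-KO and 1.52 ± 0.817 RPKM in Vav-Ezh2-KO (SD, n = 5), with overlapping groups. *Cebpb*, not a member, was the most abundant of the 4 other C/EBP family genes in WT at 60.2 ± 25.8 RPKM (SD, n = 5).

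By mean RPKM in WT the order was *Mpo*, *Prtn3*, *Elane*, *Ms4a3*, *Mrgpra2a*, *Mrgpra2b*, *Ms4a6b*, *Cebpe*, *Cebpa* and *Ctsg*, at ranks 21, 445, 4578, 5212, 7286, 7723, 8588, 8941, 9036 and 12484 of 17454 genes. *Elane* and *Ms4a3*, and each pair of neighbours from *Mrgpra2a* to *Cebpa*, differed by less than the SD of at least 1 of the genes compared.

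Across the table, 386 of 14154 genes (2.73%) passed the threshold of an adjusted p of 0.05 in Tie2-Ezh2-KO against WT, 343 higher and 43 lower (0.304%). The number of lower genes varied with the setting and was 8 against Tie2-Ezh2-WT libraries only, 21 without both libraries of high visceral endoderm markers, 25 with no filter on low values and 26 with voom on whole reads. It was 22 without Tie2-Ezh2-WT replicate 10, 17 and 28 without Vav-Ezh2-WT replicate 4 or 6, and 26 and 27 without Tie2-Ezh2-KO replicate 7 or 11. All 10 members passed the filter on low values, above 0.2 RPKM in at least 1 library, and 4 of them were among the lower genes (*Mpo*, *Elane*, *Mrgpra2a* and *Mrgpra2b*), a count that ran from 0 to 5 over 21 alternatives. It was 0 against Tie2-Ezh2-WT libraries only. It was 2 with no filter on low values, with eBayes without trend, with voom on whole reads, without both libraries of high visceral endoderm markers, and without Tie2-Ezh2-WT replicate 10, Vav-Ezh2-WT replicate 4, or Tie2-Ezh2-KO replicate 7 or 13. In 101 genes (0.714%) every knockout library was lower than every WT library, among them 2 members, and in 567 genes (4.01%) the groups did not overlap in either direction. The median log2 change was -0.91 over the 10 members and 0.01 over all genes tested. The members were chosen with this contrast in view, so nothing is read from these counts.

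In Vav-Ezh2-KO EMPs, where Cre acts from the onset of the hematopoietic stage, the granule enzymes overlapped WT. *Mpo* was 1832, 1330.0, 1125, 1751 and 1086 RPKM in replicates 1, 9, 10, 26 and 28. *Elane* was 20.9, 5.61, 4.71, 21.7 and 31.6 RPKM, with replicates 9 and 10 lower than any WT library and replicate 28 above them. *Prtn3* ran from 143 RPKM in replicate 9 to 373 RPKM in replicate 1. The log2 changes were -0.03 for *Mpo*, -0.15 for *Elane* and 0.04 for *Prtn3* (two-sided exact permutation p = 0.921, 0.794 and 0.889; limma adjusted p = 0.979, 0.952 and 0.979). Against Vav-Ezh2-WT libraries only all 3 were below 0, at -0.27, -0.38 and -0.44 (limma adjusted p = 0.869, 0.918 and 0.862), with *Prtn3* at 269 ± 87.2 RPKM in Vav-Ezh2-KO (SD, n = 5) against a mean of 348 RPKM in these 2 libraries. For *Elane* the log2 change ran from -0.46 without Vav-Ezh2-KO replicate 28 to 0.21 without replicate 10, so the direction of these changes was not settled.

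The receptors split the Vav-Ezh2-KO libraries. *Mrgpra2a* was 5.52, 0.0876, 0.910, 6.59 and 2.11 RPKM and *Mrgpra2b* 4.38, 0.129, 0.800, 5.31 and 2.38 RPKM in replicates 1, 9, 10, 26 and 28. Replicates 9 and 10, which were also lowest for *Elane* and *Cebpe*, lay below all WT libraries for both receptors, and the other 3 lay within the WT range. The log2 change was -0.92 for *Mrgpra2a* (standard error 0.71; exact permutation p = 0.357; limma adjusted p = 0.771), -0.63 for *Mrgpra2b* (standard error 0.68; exact permutation p = 0.508; limma adjusted p = 0.844) and -0.90 for their sum (standard error 0.75; limma adjusted p = 0.795). These values rest in part on replicate 9, without which they were -0.23 for *Mrgpra2a* and -0.0118 for *Mrgpra2b*, and leaving out replicate 26 gave -1.37 and -1.03. Replicate 9 also stood apart in markers of other cells. Its mast cell and basophil markers summed to 211 RPKM, against 87.2 to 115 RPKM in the other Vav-Ezh2-KO libraries, and its eosinophil markers to 10.497 RPKM, against 0.962 to 1.42 RPKM. The part of these markers in its receptor values was not tested.

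*Ms4a3* had the smallest p of the members in Vav-Ezh2-KO, at 18.6 ± 6.47 RPKM against 11.4 ± 4.21 RPKM in WT (SD, n = 5). Its log2 change was 0.73 (standard error 0.28), with 5 of 5 libraries above the WT mean, and it did not pass (exact permutation p = 0.0714; limma adjusted p = 0.556). The change was 0.31 against Vav-Ezh2-WT libraries only, and 0.46 without Tie2-Ezh2-WT replicate 4 (limma adjusted p = 0.870 and 0.830; 0.449 to 0.870 over 20 alternatives). *Cebpe* was 2.09, 0.0877, 0.479, 1.33 and 1.86 RPKM, a log2 change of -0.60 (exact permutation p = 0.413; limma adjusted p = 0.810), which was -0.13 without replicate 9. For *Ms4a6b*, *Cebpa* and *Ctsg* the log2 changes were -0.15, -0.10 and -0.15 (exact permutation p = 0.762, 0.794 and 0.841; limma adjusted p = 0.947, 0.960 and 0.941).

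In all, limma called 0 of the 10 members in Vav-Ezh2-KO, and 1 member (*Ms4a3*) had an unadjusted p under 0.05, beside 1082 of 13646 genes (7.93%). With voom on whole reads 0 members passed as well. Among all genes tested, 1 of 13646 (0.00733%) passed and 192 genes (1.41%) did not overlap between the groups, among them 0 members. The median log2 change was -0.15 over the members and -0.02 over all genes tested. The gene that passed was *Sva*, which is not a member and was named for passing. Its value was 0 in the 5 WT and the 5 Tie2-Ezh2-KO libraries, and 3.43, 4.50, 1.37, 3.20 and 2.09 RPKM in Vav-Ezh2-KO (limma adjusted p = 3.72e-05). Voom on whole reads called 0 genes. Both knockouts were compared with the same WT libraries, so their values stand side by side and are not independent. The choice of members, made with the Tie2-Ezh2-KO contrast in view, may therefore also have moved their log2 changes in Vav-Ezh2-KO.

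That some members had a larger log2 change in one knockout than in the other does not show that the knockouts differed. The difference between the effects contains the contrast in view when the members were chosen, so no test of it is given for them. Over all genes, limma on this difference, each knockout against the WT libraries of its own line, called 26 of 14394 genes (0.181%), a test added after the data were seen.

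The other genes of the granulocyte lineage and the markers of other cells, 151 genes in 17 lists without the 10 members, show where the members stand. The lists too were chosen with earlier results of these data known. Their p in Tie2-Ezh2-KO, here and below, may be affected by that choice. In Tie2-Ezh2-KO, 5 of the 128 tested (3.91%) passed, 2 higher and 3 lower, and 28 had an unadjusted p under 0.05, beside 1552 of all 14154 genes. In Vav-Ezh2-KO limma called 0 of 117, with 9 at an unadjusted p under 0.05, and voom on whole reads called 0. The median log2 change of the listed genes was 0.01 in Tie2-Ezh2-KO and -0.07 in Vav-Ezh2-KO.

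Of the 12 genes on the list fixed for primary granules, 2 fell in Tie2-Ezh2-KO, and the list's median log2 change was -0.02. Not all of them encode contents of these granules, *Calr*, *Fut7* and *Serpinb1a* among them. *Srgn*, for serglycin, the proteoglycan core that holds proteases in granules, was 153, 172 and 166 RPKM in Tie2-Ezh2-WT, 232 and 193 RPKM in Vav-Ezh2-WT, and 120.0, 139, 90.1, 90.3 and 151 RPKM in Tie2-Ezh2-KO libraries. *Serpinb1a*, an inhibitor of neutrophil elastase, proteinase 3 and cathepsin G, was 50.2, 38.1, 53.5, 47.8 and 59.0 RPKM in the WT libraries in the same order, and 34.4, 32.5, 19.9, 26.1 and 35.7 RPKM in Tie2-Ezh2-KO libraries. For both, every Tie2-Ezh2-KO library lay below every WT library. The log2 change was -0.65 for *Srgn* (standard error 0.16, limma adjusted p = 0.0414, lower in 5 of 5 libraries) and -0.76 for *Serpinb1a* (limma adjusted p = 0.0228, lower in 5 of 5 libraries). In Vav-Ezh2-KO they averaged 247 ± 93.1 and 50.3 ± 12.9 RPKM (SD, n = 5).

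These calls were unstable, while the log2 change over 21 alternatives stayed between -0.75 and -0.50 for *Srgn* and between -0.85 and -0.62 for *Serpinb1a*. The call of *Srgn* was lost in 14 of 21 alternatives (adjusted p from 0.0216 to 0.302 over all of them) and that of *Serpinb1a* in 9 of 21 (0.0183 to 0.174). For *Srgn*, leaving out Tie2-Ezh2-WT replicate 10 or 12, Vav-Ezh2-WT replicate 4 or 6, or Tie2-Ezh2-KO replicate 7, 11 or 13 gave adjusted p of 0.0759, 0.0606, 0.116, 0.0953, 0.0793, 0.102 and 0.0993. For *Serpinb1a*, leaving out Tie2-Ezh2-WT replicate 4 or 12, Vav-Ezh2-WT replicate 4 or 6, or Tie2-Ezh2-KO replicate 13 gave 0.0524, 0.0596, 0.0545, 0.0661 and 0.0564. Both calls were also lost without both libraries of high visceral endoderm markers (adjusted p = 0.0873 for *Srgn* and 0.0700 for *Serpinb1a*), with log2 changes of -0.73 and -0.81. The other 10 genes of this list did not pass, with *Calr* the most abundant in WT (448 RPKM).

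**Figure D2:**
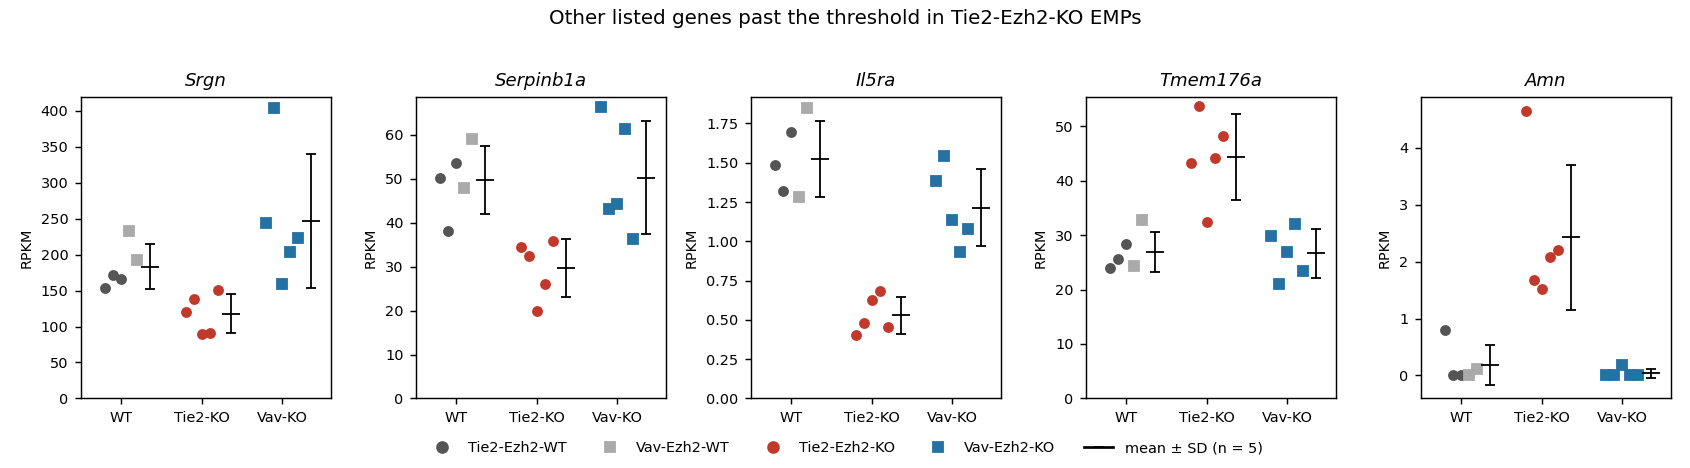
RPKM of the 5 other listed genes past the threshold in Tie2-Ezh2-KO against WT, in every library (1 point per library), with mean and SD (n = 5) as bars. All Tie2-Ezh2-KO points lie below all WT points in *Srgn*, *Serpinb1a* and *Il5ra* and above them in *Amn*, and in *Tmem176a* the groups overlap by 1 library.

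Of 17 tested genes on the list fixed for secondary and tertiary granules, 0 passed in either knockout (median log2 change 0.12 in Tie2-Ezh2-KO; 12 tested and median -0.04 in Vav-Ezh2-KO). The list also holds genes, such as *Cxcr2* and *Padi4*, whose products are not granule contents. *Camp* and *Ngp* had no read in any group, and *Ltf* was at 0.156 RPKM in WT. *Cyba*, a subunit of the phagocyte oxidase, was the most abundant in WT at 315 RPKM. Among the genes with a mean of at least 1 RPKM over the 10 WT and Tie2-Ezh2-KO libraries, *Hp*, for haptoglobin, had the largest change, from 37.5 ± 10.1 RPKM in WT to 18.4 ± 13.3 RPKM in Tie2-Ezh2-KO (SD, n = 5; log2 change -1.32, limma adjusted p = 0.155). In the 4 other C/EBP family genes (medians 0.02 in Tie2-Ezh2-KO and -0.09 in Vav-Ezh2-KO), the 16 myeloid factors (0.02 and 0.00) and the 9 receptors for colony-stimulating factors and related cytokines (-0.14 and -0.03), 0 genes passed in either knockout. *Sfpi1*, which encodes PU.1, was 157 ± 29.1 RPKM in WT against 184.9 ± 23.3 RPKM in Tie2-Ezh2-KO, and *Csf3r*, the receptor for the granulocyte factor G-CSF, 25.0 ± 5.74 RPKM and 19.6 ± 6.89 RPKM (SD, n = 5). Largest in change in their lists, among genes with such a mean over the same 10 libraries, were *Cebpd* at -0.26, *Id2* at 0.74 and *Csf3r* at -0.40 on the log2 scale in Tie2-Ezh2-KO. In Vav-Ezh2-KO, 2 of the myeloid factors lay below all WT libraries and did not pass. *Gfi1*, a repressor needed for neutrophil formation, was 0.593 ± 0.341 RPKM in WT against 0.0273 ± 0.0262 RPKM (SD, n = 5), with 221 and 10 reads summed over the libraries (log2 change -1.70, limma adjusted p = 0.203). *Id2*, an inhibitor of helix-loop-helix factors, was 3.46 ± 3.22 RPKM against 1.16 ± 0.339 RPKM (SD, n = 5; log2 change -1.13, limma adjusted p = 0.544).

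Of the families of the members, 10 other MS4A-type genes held 1 that rose in Tie2-Ezh2-KO. *Tmem176a*, a membrane protein related to the MS4A family, went from 27.0 ± 3.69 RPKM in WT to 44.3 ± 7.84 RPKM (SD, n = 5; log2 change 0.70, limma adjusted p = 0.0139, higher in 5 of 5 libraries than the WT mean), with an overlap of 1 library. Its call was lost without both libraries of high visceral endoderm markers (log2 change 0.67, adjusted p = 0.0886) and with scaling to a common median (0.67, adjusted p = 0.0618). Over 21 alternatives the log2 change stayed between 0.63 and 0.81, and the lowest adjusted p was 0.00431. *Ms4a6c* lay on the other side, with every Tie2-Ezh2-KO library below every WT library at 0.275 ± 0.182 RPKM in WT against 0.0134 ± 0.0184 RPKM (SD, n = 5), and did not pass (44 against 3 reads, log2 change -1.08, limma adjusted p = 0.0636). The list's median log2 change was 0.42 in Tie2-Ezh2-KO (5 tested) and -0.28 in Vav-Ezh2-KO, and *Tmem176b* was the most abundant in WT at 34.8 RPKM. Of the other Mas-related receptors 3 were tested and 0 passed in either knockout (medians 0.10 and 0.06), and of the other heme peroxidases and serine proteases, such as *Lpo*, granzymes and mast cell proteases, 6 and 5 were tested and 0 passed (medians 0.27 and 0.31). *Prss16*, a serine protease best known from the thymus, was the most abundant of this list in WT at 1.57 RPKM.

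Markers of other cells of the yolk sac were read for each list, since some members are also transcripts of such cells. The study's antibodies for sorting include those to lineage markers of granulocytes, macrophages and erythroid cells, and a gate with them would remove mature forms of these. The 10 markers of mature neutrophils summed to 85.4 ± 19.1 RPKM in WT, 86.0 ± 9.45 RPKM in Tie2-Ezh2-KO and 86.1 ± 16.0 RPKM in Vav-Ezh2-KO (SD, n = 5). Nearly all of this was *Cxcr2* and *Csf3r*, at 59.9 and 25.0 RPKM in WT, and the markers *S100a8*, *S100a9*, *Camp* and *Ngp* were at 0 in WT. In Tie2-Ezh2-KO *S100a8* had 11 reads (0.358 RPKM) and *S100a9* 9 reads (0.231 RPKM), and both had 0 in Vav-Ezh2-KO. Of the 8 markers tested in Tie2-Ezh2-KO, 5 had a log2 change above 0. Of this list 0 genes passed in either knockout (8 and 5 tested; median log2 changes 0.16 and 0.12).

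Mast cell and basophil markers, 8 genes, summed to 105 ± 46.7 RPKM in WT, 63.4 ± 16.4 RPKM in Tie2-Ezh2-KO and 122 ± 50.8 RPKM in Vav-Ezh2-KO (SD, n = 5). By library it was 51.7, 140.5 and 161 RPKM in Tie2-Ezh2-WT, 106 and 66.7 RPKM in Vav-Ezh2-WT, and 79.8, 61.8, 63.8, 37.1 and 74.3 RPKM in Tie2-Ezh2-KO. The groups overlapped, and 0 of the 7 genes tested passed in either knockout (median log2 changes -0.09 and 0.08). *Cpa3*, the mast cell carboxypeptidase and the most abundant in WT, was 53.6 ± 27.8 RPKM in WT against 22.6 ± 10.7 RPKM in Tie2-Ezh2-KO (SD, n = 5; log2 change -1.25, limma adjusted p = 0.109). *Mcpt8* was at 0 in every group, and *Fcer1a* had 17, 4 and 0 reads summed over WT, over Tie2-Ezh2-KO and over Vav-Ezh2-KO. Of the 7 genes tested in Tie2-Ezh2-KO, 3 had a log2 change above 0 (*Ms4a2*, *Cma1* and *Prss34*). Summed over WT and over Tie2-Ezh2-KO, *Ms4a2* had 152 and 233 reads, *Cma1* 0 and 27 and *Prss34* 1 and 7. The part of the mast cell and basophil markers in the members' values was not tested.

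Of 7 eosinophil markers, *Il5ra*, the receptor chain for interleukin 5, fell in Tie2-Ezh2-KO. It was 1.49, 1.32, 1.69, 1.29 and 1.85 RPKM in the 5 WT libraries and 0.406, 0.479, 0.627, 0.682 and 0.455 RPKM in the Tie2-Ezh2-KO libraries, with no overlap (log2 change -1.25, limma adjusted p = 0.0146, lower in 5 of 5 libraries). The call was lost against Tie2-Ezh2-WT libraries only (log2 change -1.23, adjusted p = 0.107) and without both libraries of high visceral endoderm markers (-1.19, adjusted p = 0.0850). Without 1 library the log2 change stayed between -1.32 and -1.18, with a pseudocount of 1 it was -0.72, and over 21 alternatives the lowest adjusted p was 0.00175. *Epx*, the eosinophil peroxidase, had no read in WT and Tie2-Ezh2-KO, *Ear1* none in any group, and the markers summed to 1.82 ± 0.592, 1.12 ± 0.458 and 3.07 ± 4.16 RPKM in WT and the knockouts in this order (SD, n = 5). Without Vav-Ezh2-KO replicate 9, where *Prg3* was the most abundant, the last was 1.21 ± 0.226 RPKM (SD, n = 4). The median log2 changes of the list were 0.54 and 0.41 (3 and 4 genes tested), and 0 passed in Vav-Ezh2-KO. *Siglecf* and *Ear6*, also fixed for this list, were not found under these symbols and are not in the sums. Whether *Siglec5*, named below, is the same gene as *Siglecf* was not checked.

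Monocyte and macrophage markers (15 genes, most abundant *Cd68*) summed to 28.7 ± 8.65, 23.8 ± 6.38 and 31.2 ± 2.55 RPKM in WT, in Tie2-Ezh2-KO and in Vav-Ezh2-KO, and *C1qa* and *Timd4* were at 0 in WT. Erythroid markers (9 genes, most abundant *Klf1*) summed to 214 ± 36.1, 284 ± 61.2 and 201 ± 23.7 RPKM, megakaryocyte markers (8 genes) to 279 ± 103, 245 ± 51.2 and 269 ± 69.1 RPKM, and endothelial markers (9 genes, most abundant *Egfl7*) to 163 ± 13.0, 161 ± 8.27 and 141 ± 14.2 RPKM (SD, n = 5, in the same order). Of these 4 lists and the gate's list, 0 genes passed in either knockout. Among the genes with a mean of at least 1 RPKM over the 10 WT and Tie2-Ezh2-KO libraries, those of largest log2 change in Tie2-Ezh2-KO were *Ccr2* (-0.55), *Alas2* (0.89), *Treml1* (-0.67), *Emcn* (0.85) and *Ptprc* (-0.80). *Pecam1*, an adhesion molecule of endothelium, lay below all WT libraries in Tie2-Ezh2-KO and did not pass (log2 change -0.62, limma adjusted p = 0.150). The lists' median log2 changes in Tie2-Ezh2-KO were -0.13, 0.19, -0.25, 0.13 and -0.21, and in Vav-Ezh2-KO 0.08, -0.10, 0.02, -0.30 and -0.15.

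Of the 7 visceral endoderm markers, *Amn*, the anchor of the cubilin receptor, rose in Tie2-Ezh2-KO. It was 0.798, 0, 0, 0 and 0.119 RPKM in the 5 WT libraries and 4.66, 1.67, 1.52, 2.08 and 2.21 RPKM in the Tie2-Ezh2-KO libraries (log2 change 3.01, limma adjusted p = 0.00155, higher in 5 of 5 libraries). The call held in 21 of 21 alternatives (adjusted p from 0.000207 to 0.0216), those without the libraries of high visceral endoderm markers among them, while the log2 change moved with the handling of low values, from 1.51 with a pseudocount of 1 to 5.78 with voom on whole reads. The list's median log2 change was 0.70 in Tie2-Ezh2-KO, with 7 of 7 above 0, and -0.77 in Vav-Ezh2-KO. Tests of the difference between the effects of both knockouts gave limma adjusted p of 0.826, 0.862, 0.714, 0.309 and 0.153 for *Srgn*, *Serpinb1a*, *Il5ra*, *Tmem176a* and *Amn*. These genes were named for passing in Tie2-Ezh2-KO, whose effect enters this difference, so nothing is read from these p.

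Without Tie2-Ezh2-WT replicate 4 and Tie2-Ezh2-KO replicate 7 the log2 change in Tie2-Ezh2-KO was -0.85 for *Mpo*, -1.96 for *Elane*, -0.89 for *Ms4a3*, -1.01 for *Ms4a6b*, -3.10 for *Mrgpra2a* and -3.13 for *Mrgpra2b*, against -0.75, -2.20, -1.06, -1.38, -2.65 and -2.66 with all libraries. For *Prtn3*, *Ctsg*, *Cebpe* and *Cebpa* it was -0.29, -0.18, -0.91 and -0.0273, against -0.16, -0.15, -0.77 and 0.0482. In the libraries left, visceral endoderm markers summed to 2.56 ± 1.21 RPKM in WT against 6.68 ± 3.07 RPKM in Tie2-Ezh2-KO (SD, n = 4), and their part in the members' values was not tested.

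How the granule genes varied among themselves was read in the 10 WT and Vav-Ezh2-KO libraries, of which the WT libraries also enter the contrast in view when they were chosen. Of the 15 pairs among *Mpo*, *Elane*, *Prtn3*, *Ctsg*, *Ms4a3* and *Cebpe*, all 15 had a Pearson r above 0, with a median of 0.387, and 0 passed after Benjamini-Hochberg adjustment over the 15 pairs. *Elane* and *Cebpe* had the highest r, 0.787 (permutation p = 0.00687, adjusted 0.103; Spearman rho 0.612, permutation p = 0.0659, adjusted 0.330). Without Vav-Ezh2-KO replicates 9 and 10, the farthest from the median of *Elane*, this r was 0.497, so the relation rests in part on these libraries. *Mpo* and *Prtn3* had an r of 0.679 (permutation p = 0.0359, adjusted 0.270; rho 0.661, permutation p = 0.0437, adjusted 0.330), which was 0.690 without 2 libraries.

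The genes most like the mean log2 level of *Mpo*, *Elane*, *Prtn3* and *Ctsg* across these 10 libraries, among 6808 other genes with a mean of at least 5 RPKM, were *Slc16a3* (r = 0.952), *Siglec5* (0.915), *Arpc1b* (0.905), *Impa2* (0.899), *Fam207a* (0.891), *B4galnt1* (0.882), *Emc1* (0.875) and *Arhgap9* (0.871). Lowest were *Rars2* (-0.924), *Ywhaq* (-0.891), *Pdk3* (-0.884) and *Vdac3* (-0.882). These 10 points are a description, and *Ctsg*, which the score includes, was near 0, with 0 to 9 reads per library. On the log2 scale it has the same weight as the other genes, so these few reads also moved the score and the ranking. Of the other members, *Mrgpra2b* had an r of 0.830 and *Mrgpra2a* of 0.800 with the score, above 99.7% and 99.6% of the ranked genes, *Cebpe* 0.651, *Cebpa* 0.562, *Ms4a3* 0.500 and *Ms4a6b* -0.04. Both receptors lay below the mean of 5 RPKM that the ranked genes had to reach. Vav-Ezh2-KO replicates 9 and 10 were the lowest of the 10 libraries in the score (4.44 and 4.52) and in both receptors, and r without them was not computed. None of the 12 genes passed in Tie2-Ezh2-KO, where *Siglec5*, a sialic acid receptor of myeloid cells, had the largest change, from 14.1 ± 2.54 RPKM in WT to 9.98 ± 3.59 RPKM (SD, n = 5; log2 change -0.55, limma adjusted p = 0.340). *Siglec5* was not counted among the eosinophil markers above.

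None of the nearest genes on the chromosomes passed. Taking the 2 nearest genes of the table on each side of each member gave 30 different genes that are not members, of which 22 were tested in Tie2-Ezh2-KO and 19 in Vav-Ezh2-KO, and limma called 0 in each. Beside *Prtn3* and *Elane* lies *Cfd*, 2636 bases from *Elane*, and beside *Mpo* lies *Lpo*, 2015 bases away, both near 0 RPKM. Of the 22, *Ms4a6c*, 31376 bases from *Ms4a6b*, came nearest to the threshold in Tie2-Ezh2-KO (log2 change -1.08, limma adjusted p = 0.0636).

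Promoter sequences from RefSeq (GRCm38.p6, 250 bases before to 50 after the gene start) matched 9 of the 10 members, and *Cebpe* was not matched. The 5 printed here, 5′ to 3′ on the gene's strand, are those of the most abundant enzyme (*Mpo*, chr11:87793534-87793833, plus strand), of the neighbouring proteases (*Elane*, chr10:79886062-79886361, plus strand, and *Prtn3*, chr10:79879417-79879716, plus strand), of *Ms4a3* (chr19:11640802-11641101, minus strand) and of *Mrgpra2a* (chr7:47452115-47452414, minus strand). The log2 changes of *Elane* and *Prtn3* in Tie2-Ezh2-KO were -2.20 and -0.16, and their difference was not tested. Capitals mark matches, on either strand, to the C/EBP form TTNNGNAA or to the PU.1 form GAGGAA.
Mpo: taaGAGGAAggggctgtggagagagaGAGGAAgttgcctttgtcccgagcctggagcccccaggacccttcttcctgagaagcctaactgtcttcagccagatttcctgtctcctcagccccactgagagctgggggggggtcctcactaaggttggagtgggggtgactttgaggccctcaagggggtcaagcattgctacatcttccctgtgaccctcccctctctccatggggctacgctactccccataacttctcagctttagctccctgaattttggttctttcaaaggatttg
Elane: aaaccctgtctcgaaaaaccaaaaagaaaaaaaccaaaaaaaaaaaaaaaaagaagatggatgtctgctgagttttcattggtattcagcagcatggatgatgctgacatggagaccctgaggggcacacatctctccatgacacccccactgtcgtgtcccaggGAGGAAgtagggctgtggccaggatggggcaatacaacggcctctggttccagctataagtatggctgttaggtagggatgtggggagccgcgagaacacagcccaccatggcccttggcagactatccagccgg
Prtn3: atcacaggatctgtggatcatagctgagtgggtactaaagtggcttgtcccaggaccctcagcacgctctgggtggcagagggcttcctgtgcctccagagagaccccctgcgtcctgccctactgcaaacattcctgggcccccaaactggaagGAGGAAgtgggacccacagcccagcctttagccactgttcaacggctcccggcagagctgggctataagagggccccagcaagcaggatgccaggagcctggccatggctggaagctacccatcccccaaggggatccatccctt
Ms4a3: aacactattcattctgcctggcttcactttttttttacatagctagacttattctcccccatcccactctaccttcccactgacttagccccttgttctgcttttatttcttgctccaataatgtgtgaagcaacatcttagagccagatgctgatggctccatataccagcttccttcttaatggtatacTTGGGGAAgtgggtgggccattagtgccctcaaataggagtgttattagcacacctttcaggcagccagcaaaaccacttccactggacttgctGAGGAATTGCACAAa
Mrgpra2a: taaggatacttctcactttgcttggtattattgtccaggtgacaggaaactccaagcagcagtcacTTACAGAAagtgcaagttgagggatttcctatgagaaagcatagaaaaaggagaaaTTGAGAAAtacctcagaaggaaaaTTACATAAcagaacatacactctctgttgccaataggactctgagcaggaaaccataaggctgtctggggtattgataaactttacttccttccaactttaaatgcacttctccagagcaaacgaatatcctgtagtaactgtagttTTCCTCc
The promoter of *Mrgpra2b* (chr7:47489533-47489832, minus strand) is identical to that of *Mrgpra2a* over all 300 bases. GAGGAA was found in 7 of 9 member promoters and in 28.3% of 32851 mouse promoters of this length, and TTNNGNAA in 4 of 9 and 40.7%. The MYB form AACNG was found in 8 of 9 and 80.3%, and the RUNX form TGNGGT in 4 of 9 and 45.8%. The sequence shared by *Mrgpra2a* and *Mrgpra2b*, which matches all of these forms, enters each count over 9 promoters 2 times. In *Ms4a3* a C/EBP match directly follows the PU.1 match. *Mrgpra2a* holds 3 matches to the C/EBP form and 1 to the PU.1 form, *Mpo* 0 and 2. A match is only a run of letters in this window, and binding was not measured here.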

How the data were processed

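The authors aligned reads to GRCm38/mm10 with TopHat2 2.0.13, counted them per RefSeq gene with featureCounts and deposited RPKM for 17454 genes. RPKM is not corrected for composition between libraries. Whole reads were recovered from the steps between RPKM values, and all 16877 genes above 0 came out whole within 1e-05 reads. Between replicates the chi-square per gene was 16.4 to 133 against the noise of counting reads alone. That noise leaves out PCR and the difference between embryos, so no conclusion is drawn from it. Each library was 1 replicate.

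Each knockout (5 libraries) was compared with all 5 WT libraries by limma 3.58.1 in R 4.3.3 (lmFit, eBayes with trend) on log2(RPKM + 0.2), for genes above 0.2 RPKM in at least 1 library, with Benjamini-Hochberg adjustment. Exact permutation tests were two-sided over 252 divisions, and correlations used 100000 permutations (Python 3.11.15). The code was tested on simulated data.

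The members and lists were chosen with earlier results of these data known. The genes named were the 10 members; of each of 17 lists the most abundant gene in WT, those past the threshold and the one of largest change in Tie2-Ezh2-KO with a mean of at least 1 RPKM; the 8 most and 4 least like the granule score; and neighbours past the threshold. Other genes were named after their values were seen. The values of 2 genes of the lists are not reported here.

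Alternatives were pseudocounts of 1 and 0.05, quantile normalization, a common median for all libraries, other filters on low values, no trend in eBayes, all 15 libraries in one fit, WT libraries of the same line only, the summed receptor pair, and leaving out each library. Chosen after seeing the data were voom on whole reads and leaving out both libraries of highest visceral endoderm markers. ATAC-seq, CUT&RUN and culture experiments were not analysed here.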

Additional observations from a re-analysis of the deposited data

Results flagged for a closer look

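The *Ms4a3* values of the knockouts lay on opposite sides of the WT mean. The log2 change was -1.06 in Tie2-Ezh2-KO, with 5 of 5 libraries below the WT mean, and 0.73 in Vav-Ezh2-KO, with 5 of 5 libraries above it. The gene was chosen with the Tie2-Ezh2-KO contrast in view, and the difference between the knockouts was not tested. The knockouts share the WT libraries that set this mean. Against the WT mean of each line, 9.44 RPKM in Tie2-Ezh2-WT and 14.4 RPKM in Vav-Ezh2-WT, 2 Tie2-Ezh2-KO libraries lay above and 2 Vav-Ezh2-KO libraries below, and the log2 changes were -0.78 and 0.31.

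Values far from the others of their group were looked for with Dixon's ratio in 75 sets of 5 libraries, 16 genes and 9 marker sums in WT and each knockout. On the RPKM scale 14 values stood apart, and 8 on log2(RPKM + 0.2). By chance about 1 in 20 sets would hold such a value if the values were normally distributed. That rate does not hold for sets with values tied at 0, such as *Ctsg*, or *Amn* in Vav-Ezh2-KO, so the counts are not compared with it. Of the members, the values set apart were *Cebpe* at 6.54 RPKM in Tie2-Ezh2-KO replicate 11, and *Ctsg* at 0.310 RPKM in Tie2-Ezh2-KO replicate 17 and 0.313 RPKM in Vav-Ezh2-KO replicate 28, on the RPKM scale only. Visceral endoderm markers summed to 94.0 RPKM in Tie2-Ezh2-WT replicate 4, 136 RPKM in Tie2-Ezh2-KO replicate 7 and 3.43 RPKM in Vav-Ezh2-KO replicate 9, and *Amn* was 0.798 RPKM in the first and 4.66 RPKM in the second of these, and 0.176 RPKM in Vav-Ezh2-KO replicate 10. In Vav-Ezh2-KO replicate 9 mast cell and basophil markers summed to 211 RPKM and eosinophil markers to 10.497 RPKM. In Tie2-Ezh2-KO replicate 9 monocyte and macrophage markers were low, at 12.5 RPKM, and megakaryocyte markers high, at 337 RPKM. Markers of mature neutrophils summed to 102 RPKM in Tie2-Ezh2-KO replicate 17.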

How the results depend on the processing

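No paired analysis was possible because the groups share fewer than 2 replicate numbers. In Tie2-Ezh2-KO, 386 genes passed, against 187 with WT libraries of the same line only, 217 without both libraries of highest visceral endoderm markers, and 262 to 438 without 1 library. Groups did not overlap in 567 genes, against 880 and 933 under the first 2 of these, where fewer libraries had to separate, and 652 to 841 without 1 library. Of the listed genes 5 passed, against 7 with quantile normalization, 6 with a pseudocount of 0.05, 3 with scaling to a common median, 2 with WT libraries of the same line, 1 without both visceral endoderm libraries, and 3 to 6 without 1 library (3 without Vav-Ezh2-WT replicate 4 or 6 or Tie2-Ezh2-KO replicate 13).

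In Vav-Ezh2-KO, 1 gene passed, against 2 with scaling to a common median, 2 with WT libraries of the same line, 0 with voom, and 1 to 2 without 1 library (2 without Tie2-Ezh2-WT replicate 10 or 12 or Vav-Ezh2-WT replicate 4). The log2 change in Vav-Ezh2-KO changed sign for *Mpo* with scaling to a common median (0.0163), for *Prtn3* with quantile normalization (-0.0243) and WT libraries of the same line (-0.44), and with voom for *Ctsg* (0.28), *Ms4a6b* (0.0848) and *Cebpa* (0.13). Without 1 library it ran from -0.13 to 0.0634 for *Mpo*, -0.46 to 0.21 for *Elane*, -0.10 to 0.25 for *Prtn3*, -0.40 to 0.11 for *Ctsg*, -0.45 to 0.10 for *Ms4a6b*, -0.34 to 0.19 for *Cebpa*, -1.37 to -0.23 for *Mrgpra2a*, -1.03 to -0.0118 for *Mrgpra2b*, -0.87 to -0.13 for *Cebpe* and 0.46 to 0.87 for *Ms4a3*. No member passed in Vav-Ezh2-KO under any of these alternatives (adjusted p from 0.449 to 0.999). The value of *Cebpe* in Tie2-Ezh2-KO was -2.11 with voom and -1.47 to -0.20 without 1 library. Of the correlations 0 passed, and 5 with all 15 libraries and group means subtracted, a count from which nothing is read, since the Tie2-Ezh2-KO libraries enter it. The causes of these changes were not tested. Low reads limit *Ctsg*, *Ms4a6b*, *Cebpe* and both receptors.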
